A study of Mus musculus with 52 samples.

Results

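Transcripts of 10 genes of the erythropoietin receptor pathway were followed in single daughter cells of mouse erythroid progenitors. The genes were taken by symbol from the 49466 genes of the deposited count tables. They were Epor, its kinase Jak2, the transcription factors Stat5a and Stat5b, and the target or feedback genes Cish, Socs1, Socs2, Socs3, Pim1 and Osm. All 10 were found in the tables of both treatments. The cells descended from burst-forming unit-erythroid (BFU-E) founders, early progenitors committed to red cell formation. Founders were isolated from day 14.5 fetal livers of the C57/Bl6J strain, after lysis of mature red cells, depletion of cells with lineage, Sca-1, CD16/32 or CD41 labels, and sorting with antibodies to Kit, the transferrin receptor and CD24. Each was cultured alone in medium without or with 100 nM dexamethasone, a synthetic glucocorticoid, for 16 hours. Wells in which it had divided once gave 2 daughters, each sequenced as its own library. There were 13 untreated and 13 dexamethasone pairs. The untreated wells are the only controls, the labels name no genetic alteration, and the sources used here do not name the cytokines of the medium.

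Erythropoietin binding brings together receptor chains that carry the kinase JAK2, which phosphorylates the receptor and the transcription factors STAT5A and STAT5B. The phosphorylated STAT5 proteins enter the nucleus and switch on survival and growth genes together with genes whose products damp the signal, such as Cish and the Socs genes. In the fetal liver this pathway is required for definitive red cell production, and BFU-E cells are known to depend on it less than the later erythroid stage that follows them.

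Values were read counts of a gene scaled to the total of its library (CPM, the usual depth-scaled count), and a gene was scored as detected in a library at 10 CPM or more. A pair, the founder with its well, was the replicate. No animal is named in the labels, so founders may share an embryo or litter, and p-values reflect only how founders differ. Library totals ran from 0 to 5606500 counts. Untreated pairs 4, 7 and 12 each had a daughter under 100000 counts and were left out of the values below, which leaves 10 untreated and 13 dexamethasone pairs with 46 libraries of 210383 to 5606500 counts. The labelled cell type was checked on 20 erythroid markers, of which a median of 16.5 per library were detected in untreated and 14 in dexamethasone cells. The 20 include Epor itself, and Tfrc and Cd24a, which encode surface markers used in the sort. The check is therefore not independent of Epor or of the sort. At least 3 of 15 granulocyte and monocyte markers were detected in 5 of 20 untreated and 7 of 26 dexamethasone libraries. They belong to 7 pairs (3 untreated, 4 dexamethasone), called granulocyte-marker pairs here. Untreated pair 5 is among them through 3 markers in cell 1. Its daughters also had 15 and 17 erythroid markers, with 43.2 and 51.8 CPM of Mpo, a granulocyte enzyme gene. It held the highest Cish and Jak2 levels of the 46 libraries, so values without these pairs leave those out. Dexamethasone pair 12 is among them through cell 1 alone. At least 3 of 10 megakaryocyte markers were detected in 4 of 20 untreated and 5 of 26 dexamethasone libraries. In untreated libraries the summed level of the 15 granulocyte and monocyte markers ran from 0.278 to 44746 CPM, with Cebpe, Csf3r and Gfi1 at 0 throughout. In dexamethasone libraries it ran from 0 to 27442 CPM, with Cebpe and Gfi1 at 0. Untreated libraries sat in plate columns 1, 2, 5 and 6 and dexamethasone libraries in columns 3, 4, 6 and 7, so only column 6 held both. The effect of a single column and that of dexamethasone cannot be told apart. Columns 1 to 4 and columns 5 to 7 are compared separately where a result depends on them.

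RefSeq promoter windows (GRCm38.p6, 250 bases before to 50 bases after the annotated start) were at hand for 8 of the 10 genes, all but Socs2 and Osm, 11 windows in all. The letters TTCNNNGAA, the pattern bound by STAT5 dimers, read the same on both strands. They occurred in 8.30% of the 32851 promoter windows of all genes, and among the 10 genes in the windows of Cish and Socs3. Cish held them at 2 places, as 0.457% of all windows did. The letters AGATAA, the pattern bound by GATA factors, were searched on both strands. They occurred in 11.2% of all windows and, among the 10 genes, in the window of Epor. The pattern is in capitals below, reading along the gene's own strand. Epor carries it as its reverse complement. The first sequence lies on chromosome 9 from 107296654 to 107296683 (plus strand), across the RefSeq start of Cish. The second lies on chromosome 11 from 117969502 to 117969531 (minus strand), before the RefSeq start of Socs3. The third is the run of 100 bases before the RefSeq start of Epor, on chromosome 9 from 21963577 to 21963676 (minus strand). GENCODE M21, used for the gene positions further on, places the outer bounds of Cish and Socs3 further upstream, so the first 2 sequences lie inside those genes as GENCODE gives them. The sequences are shown because these genes stand at the top and the output end of the pathway, and a match of letters does not show that a factor was bound.
Cish: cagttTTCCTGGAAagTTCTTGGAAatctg
Socs3: agaaaccagccTTCTTAGAAgggagggggg
Epor: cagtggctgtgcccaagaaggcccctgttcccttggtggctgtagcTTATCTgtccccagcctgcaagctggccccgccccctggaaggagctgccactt

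Epor, the receptor, was the most widely detected of the 10 genes at this threshold, in 31 of 46 libraries. The gene lies on chromosome 9 from 21958897 to 21963506 (minus strand, GRCm38, GENCODE M21). In untreated cells its level ran from 0.216 to 524 CPM with a median of 107, and 15 of 20 libraries reached 10 CPM. With dexamethasone it ran from 0 to 583 CPM with a median of 71.5, and 16 of 26 libraries reached 10 CPM. The levels were split rather than graded. Of the 46 libraries 15 were under 10 CPM, 9 lay from 10 to 100 CPM and 22 at 100 CPM or more, while no value lay between 0.79 and 10.6 CPM. Both treatments held high and low cells and their ranges overlapped.

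Jak2, the kinase that carries the receptor's signal, was detected in 7 of 20 untreated and 8 of 26 dexamethasone libraries (chromosome 19 from 29251828 to 29313080, plus strand). It ran from 0 to 294 CPM in untreated cells, with a median of 0.247, and from 0 to 241 CPM with dexamethasone, with a median of 0.271. Both daughters of a founder had it in 4 of 23 pairs. The highest pair in each treatment was untreated pair 5, at 71.0 and 294 CPM, and dexamethasone pair 4, at 63.7 and 241 CPM. In 21 of the 46 libraries Jak2 had no count.

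Stat5a and Stat5b are neighbours on chromosome 11 that encode near-identical transcription factors, Stat5a from 100859351 to 100885169 (plus strand) and Stat5b from 100780731 to 100850724 (minus strand). Stat5a was detected in 9 of 20 untreated libraries (0 to 125 CPM, median 9.51) and in 16 of 26 dexamethasone libraries (0 to 144 CPM, median 19.4). Stat5b was detected in 9 of 20 untreated libraries (0 to 352 CPM, median 5.82) and in 11 of 26 dexamethasone libraries (0 to 233 CPM, median 0.617). At 10 CPM or more, single cells often showed only 1 of these 2 factors, and loss of transcripts during preparation was not tested. Both were detected in 12 of 46 libraries, Stat5a alone in 13, Stat5b alone in 8 and neither in 13. The exons share 608 words of 50 bases, 8.21% of those of Stat5a and 10.99% of those of Stat5b, and the sources used here do not state how reads there were assigned. Stat5a also shares 72 exon bases with Stat3 on the other strand, and the use of strand in counting is not stated either.

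Cish, whose product binds the activated receptor and damps STAT5 signalling, lies on chromosome 9 from 107296026 to 107302784 (plus strand). It was detected in 12 of 20 untreated libraries, from 0 to 387 CPM with a median of 42.1. With dexamethasone it was detected in 6 of 26 libraries, from 0 to 229 CPM with a median of 0. Both daughters had it in 5 of 10 untreated pairs and in 0 of 13 dexamethasone pairs. A single daughter had it in 2 untreated and 6 dexamethasone pairs.

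Pim1, a survival kinase gene induced by STAT5 (chromosome 17 from 29490753 to 29496112, plus strand), differed from the others in its distribution. It had at least 1 count in 44 of 46 libraries, yet never passed 58.0 CPM. It ran from 0 to 58.0 CPM in untreated cells (median 10.004, 10 of 20 at 10 CPM or more) and from 0 to 23.6 CPM with dexamethasone (median 3.18, 7 of 26).

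The Socs genes, which encode inhibitors of cytokine receptors and Janus kinases, were rare. Socs2 (chromosome 10 from 95385362 to 95417180, minus strand) was detected in 5 of 20 untreated libraries, up to 76.5 CPM, and in 4 of 26 dexamethasone libraries, up to 62.5 CPM. Socs1 (chromosome 16 from 10782240 to 10785536, minus strand) was detected in 1 untreated library at 17.1 CPM and in 2 dexamethasone libraries, both at 25.1 CPM. Socs3 (chromosome 11 from 117966079 to 117970047, minus strand) was detected in 1 untreated library at 56.1 CPM and 1 dexamethasone library at 18.8 CPM, and had no count in the other 44. Osm, a cytokine gene known as a STAT5 target (chromosome 11 from 4236420 to 4241026, plus strand), had counts in 1 library, cell 2 of untreated pair 6, at 18.7 CPM.

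**Figure D1:**
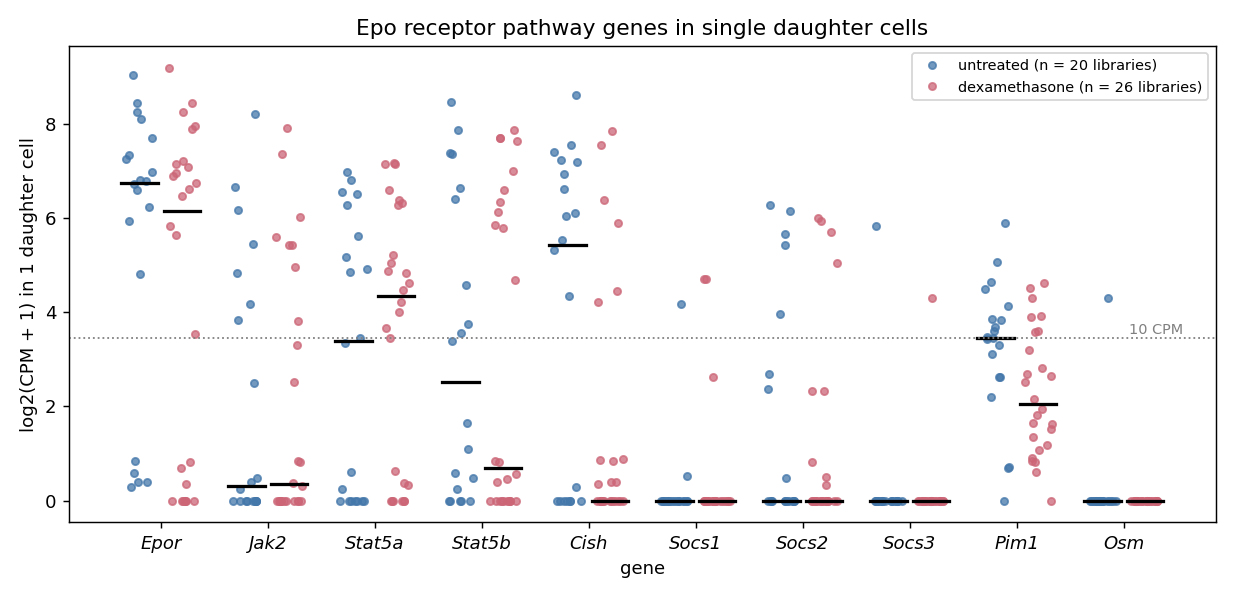
Level of each of the 10 genes in every daughter cell, as log2(CPM + 1), for 20 untreated libraries (blue) and 26 dexamethasone libraries (red). Black bars are medians and the dotted line is 10 CPM. Epor falls into a high and a low set in both treatments, Cish is detected in 12 untreated and 6 dexamethasone libraries, and Pim1 is low but has counts in nearly all cells.

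To compare levels between genes, CPM was divided by the length of the merged exons in kilobases and averaged over the daughters on the log2(value + 1) scale. This assumes reads spread along the merged exons, and the sources used here do not name the library preparation. On that scale Epor was highest at 4.15 ± 2.51 (SD, n = 23 pairs), followed by Stat5b at 1.85 ± 1.47, Stat5a at 1.74 ± 1.29, Pim1 at 1.54 ± 0.93, Cish at 1.52 ± 1.62 and Jak2 at 1.24 ± 1.501. Socs2 followed at 0.56 ± 0.73, Socs1 at 0.24 ± 0.54, Socs3 at 0.16 ± 0.53 and Osm at 0.07 ± 0.33. Epor exceeded Stat5b in 19 of 23 pairs, by 2.30 ± 2.77 (SD). That gap is smaller than its SD over pairs, and the gaps between the further neighbours in the order were smaller than theirs too. As plain means of CPM per kilobase the order differed, with Cish at 7.07 above Stat5a at 4.995 and Pim1 at 2.78. Stat5b minus Stat5a was 0.11 ± 1.98 (SD, n = 23 pairs) on this log2 scale per kilobase, with Stat5b higher in 12 pairs and Stat5a in 11 (two-sided permutation test with 100000 sign changes, p = 0.783).

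**Figure D2:**
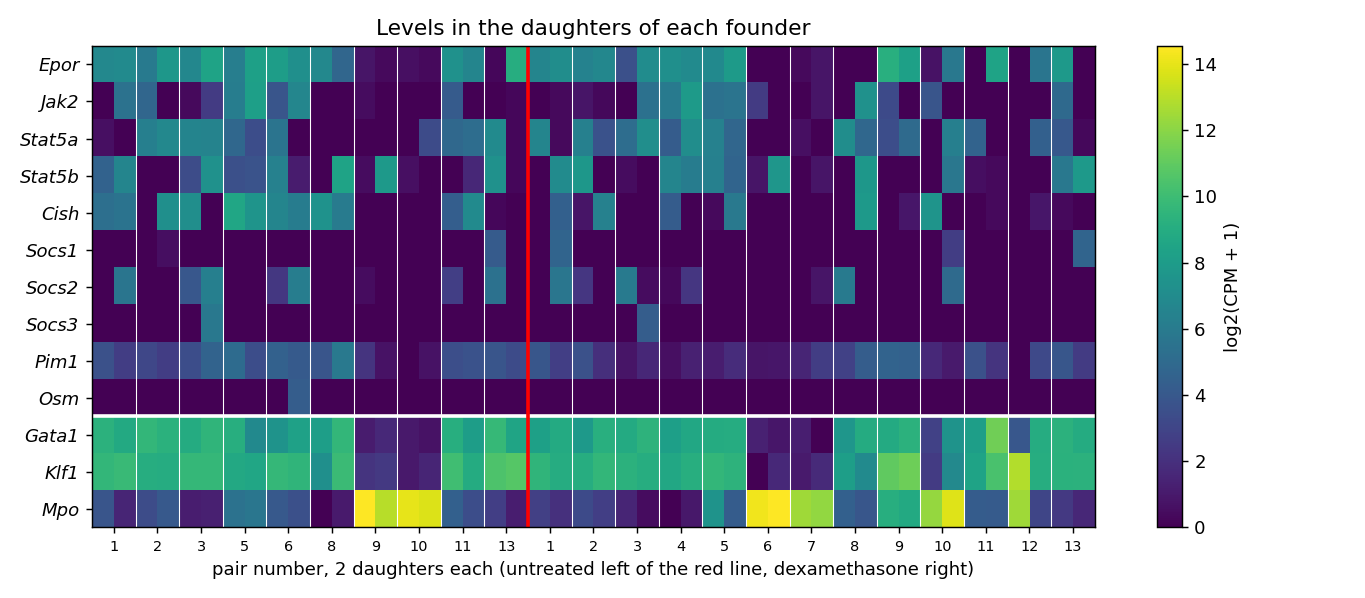
Levels as log2(CPM + 1) of the 10 genes, and of Gata1, Klf1 and Mpo, in the 2 daughters of each of the 23 founders, untreated left and dexamethasone right of the red line. Epor is dark in both daughters of untreated pairs 9 and 10 and dexamethasone pairs 6, 7 and 8, and in 1 daughter of untreated pair 13 and of dexamethasone pairs 10, 11, 12 and 13.

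The receptor was found together with the erythroid transcription factors Gata1 and Klf1. All 31 libraries with Epor at 10 CPM or more also had both. So did all 34 libraries with fewer than 3 granulocyte markers, with or without Epor. In the 12 libraries with at least 3 granulocyte markers, Epor was detected in 2 and its median was 0.412 CPM. In the other 34 it was detected in 29, with a median of 120 CPM. Stat5a was detected in 2 of those 12 and 23 of the other 34, Cish in 2 and 16, and Pim1 in 1 and 16. Stat5b was detected in 4 and 16. These counts describe cells, several of them from the same founder, and were not tested.

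Of the 37 libraries with Gata1 at 10 CPM or more, 6 had Epor under that level. Both daughters of dexamethasone pair 8 had Gata1 (201 and 495 CPM) and Klf1 (280 and 123 CPM) but 0 counts of Epor among 2304233 and 2314619 counts, which allows at most 1.30 CPM by counting error. These daughters had 6 and 8 of the 20 erythroid markers, against a dexamethasone median of 14. They also had 4 and 3 of 10 megakaryocyte markers, and 1.74 and 0 CPM of the globin gene Hba-a1. Cell 2 of dexamethasone pair 13 had 487 CPM of Gata1, 647 CPM of Klf1 and 0 counts of Epor among 3783164 counts, which allows up to 0.793 CPM. Cell 1 of dexamethasone pair 11 had 284 CPM of Gata1 and no Epor count, with an upper limit of 1.43 CPM. Cell 1 of untreated pair 13 had 870 CPM of Gata1 and 0.216 CPM of Epor. The remaining one, cell 1 of dexamethasone pair 12, was the shallowest library of the 46 at 210383 counts, where 0 counts allow up to 14.3 CPM. In the other 5 the value or its limit was 1.43 CPM or lower. Whether a transcript was lost when the cell was prepared was not tested.

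The receptor, its kinase and a Stat5 gene were detected together in a minority of cells. A gene under 10 CPM in a cell is not shown to be absent from it, and loss of transcripts during preparation was not tested. Of the 31 libraries with Epor, 13 had Jak2, 26 had a Stat5 gene, and 12 had Epor, Jak2 and a Stat5 gene together. In 4 of the 31 none of Jak2, Stat5a and Stat5b reached 10 CPM. The number of the 10 genes detected per library ran from 0 to 6 with a median of 3.

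Cish was found mostly where Epor was found, in 16 libraries with Epor and 2 without. Among libraries with Epor, 12 of 15 untreated and 4 of 16 dexamethasone libraries had Cish at 10 CPM or more. For Pim1 the counts were 9 of 15 and 5 of 16. These are counts of cells, several of them from the same founder, and were not tested. Whether or not Epor was detected, Cish reached 10 CPM in 10 of 12 untreated libraries of plate columns 1 to 4. In columns 5 to 7 it did so in 2 of 8. With dexamethasone the counts were 5 of 16 and 1 of 10. Those 8 untreated libraries include granulocyte-marker pairs 9 and 10, and those 16 dexamethasone libraries include granulocyte-marker pairs 6 and 7. Neither Epor nor Cish reached 10 CPM in the daughters of these pairs. The 2 libraries with Cish and no Epor were both from dexamethasone. Cell 2 of pair 8 had 229 CPM of Cish with 495 CPM of Gata1, and cell 1 of pair 10 had 186 CPM of Cish with 4843 CPM of Mpo, a granulocyte enzyme gene, and 6.10 CPM of Gata1.

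**Figure D3:**
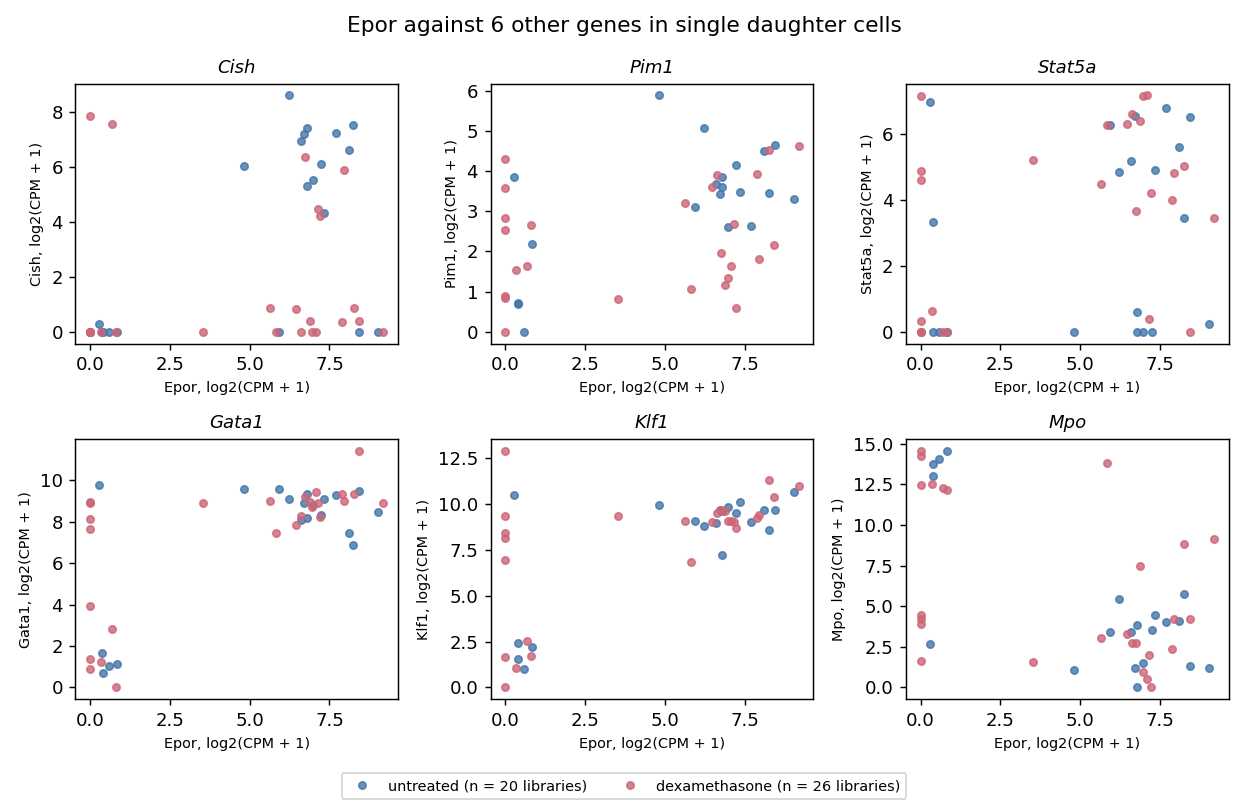
Epor (horizontal) against Cish, Pim1, Stat5a, Gata1, Klf1 and Mpo (vertical), all as log2(CPM + 1), in 20 untreated (blue) and 26 dexamethasone libraries (red). All 31 Epor cells lie in the upper right for Gata1 and Klf1, while for Cish untreated Epor cells are mostly high and dexamethasone Epor cells mostly at the bottom.

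The first comparison asked whether dexamethasone changed these genes. None of the 7 genes that passed the filter on low counts was called, as 0% of the 7190 genes tested were. Socs1, Socs3 and Osm did not pass the filter. The test was edgeR's quasi-likelihood test on counts summed per pair with Benjamini-Hochberg adjustment. At an unadjusted p under 0.05 it found 71 genes, DESeq2 found 173 and limma 304, each with 0 calls. Without the granulocyte-marker pairs edgeR called 1 gene, the glucocorticoid-induced Tsc22d3 (adjusted p = 0.00466), named after its value was seen.

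Cish had the lowest fold change with dexamethasone among the 7 genes. In untreated pairs the mean of the daughters' log2(CPM + 1) ran from 0 to 8.07 with a median of 4.52, and in dexamethasone pairs from 0 to 3.92 with a median of 0.44. The median dexamethasone pair was near 0, but 5 of 10 untreated pairs lay under the highest dexamethasone pair, so the groups overlapped. Group means were 3.96 ± 3.01 (SD, n = 10) and 1.54 ± 1.62 (SD, n = 13). The edgeR log2 fold change was -1.67 ± 1.35 (SE, adjusted p = 0.9999), and limma on the pair means gave -2.42 ± 0.94 (SE) with an unadjusted p of 0.0156 and the same adjusted p. In plate columns 1 to 4 Cish had pair means of 5.63 ± 1.79 (SD, n = 6) without and 1.88 ± 1.67 (SD, n = 8) with dexamethasone. In columns 5 to 7 they were 1.45 ± 2.80 (SD, n = 4) and 1.005 ± 1.55 (SD, n = 5). Without the granulocyte-marker pairs they were 4.50 ± 2.28 (SD, n = 7) and 1.76 ± 1.59 (SD, n = 9).

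Pim1 pair means ran from 0.35 to 4.86 untreated (median 3.58) and from 0.87 to 4.57 with dexamethasone (median 2.09), with broad overlap. The edgeR log2 fold change was -0.94 ± 0.64 (SE, adjusted p = 0.9999). In columns 1 to 4 the means were 3.91 ± 0.77 (SD, n = 6) without and 2.03 ± 1.06 (SD, n = 8) with dexamethasone, and in columns 5 to 7 the order turned, at 2.24 ± 1.61 (SD, n = 4) and 2.72 ± 1.30 (SD, n = 5). Epor pair means ran from 0.49 to 7.67 untreated (median 6.85) and from 0 to 8.72 with dexamethasone (median 4.22). Its edgeR log2 fold change was -0.11 ± 0.96 (SE, adjusted p = 0.9999). Epor also turned between the column sets, from 7.00 ± 0.68 untreated against 4.24 ± 3.41 with dexamethasone in columns 1 to 4 to 3.18 ± 3.18 against 4.59 ± 2.37 in columns 5 to 7 (SD). Granulocyte-marker pairs were 1 of 6 untreated and 2 of 8 dexamethasone pairs in columns 1 to 4, and 2 of 4 and 2 of 5 in columns 5 to 7. Without them, over all columns, Epor was 6.63 ± 1.06 (SD, n = 7) against 5.58 ± 2.60 (SD, n = 9) with dexamethasone, and Pim1 3.77 ± 0.70 against 2.66 ± 1.20. The difference between column sets was itself tested, as an interaction added after these values were seen. edgeR called 0% of 7190 genes (451 at an unadjusted p under 0.05), with adjusted p = 0.776 for Pim1 and 0.9999 for Epor and Cish.

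The other genes of the pathway lay closer to 0 than their errors. The edgeR log2 fold change was 0.28 ± 1.07 (SE) for Stat5a, -0.09 ± 1.18 for Stat5b, -0.14 ± 1.35 for Jak2 and -0.68 ± 1.39 for Socs2, each with adjusted p = 0.9999. The errors are wide. The median fold change of the 7 genes was -0.14, against 0.02 over all 7190. For a gene detected in a minority of cells, fewer cells with the transcript and less transcript per cell both lower a pair sum.

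**Figure D4:**
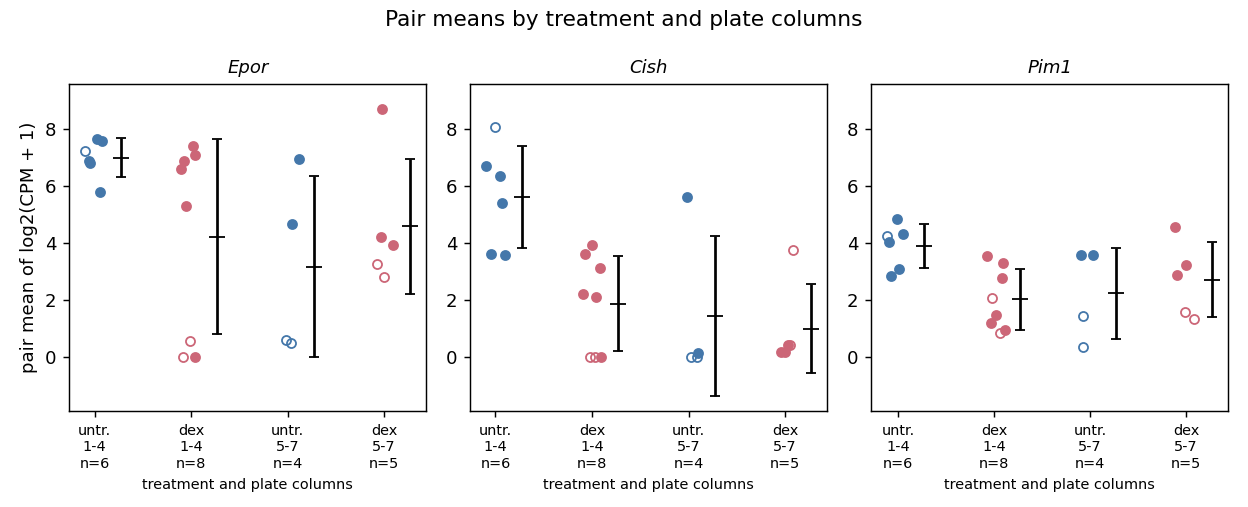
Pair means of log2(CPM + 1) of Epor, Cish and Pim1 by treatment and plate columns (1 to 4, 5 to 7), with open circles for granulocyte-marker pairs and bars for mean ± SD. Cish is lower with dexamethasone in columns 1 to 4, where 2 of 8 dexamethasone pairs exceed the lowest untreated pair, and the treatments overlap widely in columns 5 to 7.

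The second comparison asked whether the kinase, the STAT5 genes and the targets followed Epor across founders. None of the 6 genes tested was called, against 0.807% of 7189 genes (58, of which 21 rose and 37 fell with Epor). The slope is the change in log2 count of a gene per unit of log2(CPM + 1) of Epor, from edgeR on pair sums with treatment as a covariate. It was 0.26 ± 0.26 (SE) for Jak2, 0.21 ± 0.22 for Stat5a, -0.15 ± 0.21 for Stat5b, -0.01 ± 0.30 for Cish, 0.14 ± 0.32 for Socs2 and 0.19 ± 0.12 for Pim1. Pim1 had the lowest adjusted p of the 6, at 0.686. The Cish slope rested on dexamethasone pair 8, whose cell 2 had Cish without Epor. Without that pair it was 0.73 (adjusted p = 0.689). On pair means with limma, which weights cells equally and called 969 genes, the slope was 0.43 ± 0.15 for Stat5a (SE, adjusted p = 0.0571), 0.39 ± 0.15 for Cish (0.0836), 0.22 ± 0.10 for Pim1 (0.124), 0.33 ± 0.15 for Jak2 (0.140), 0.13 ± 0.12 for Socs2 (0.475) and 0.12 ± 0.17 for Stat5b (0.666), with adjusted p in parentheses and none called. Without the granulocyte-marker pairs edgeR called 1 gene, the globin gene Hbb-bs (adjusted p = 0.0274, named after its value was seen), and with Gata1 as a second covariate 0 genes (263 at an unadjusted p under 0.05). The number of calls was 27 without untreated pair 9, 22 without untreated pair 10, 99 without untreated pair 13, and 34, 30, 36 and 96 without dexamethasone pairs 1, 2, 5 and 8.

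As a description over the 23 pair means of log2(CPM + 1), Pearson's r with Epor was 0.536 for Pim1, 0.512 for Cish, 0.498 for Stat5a, 0.409 for Jak2 and 0.153 for Stat5b. The pairs fell into those with granulocyte markers and those without. In the 16 pairs without them the same values were 0.025, 0.196, 0.018, 0.111 and -0.073. For Gata1 r with Epor was 0.768 over the 23 pairs and -0.01 in the 16, and for Klf1 0.779 and 0.615. Each value compares genes of the same libraries, so depth is shared.

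Whether treatment changed the slope on Epor was tested as an interaction. edgeR called 0% of 7189 genes, with 732 at an unadjusted p under 0.05, and 0 of the 6. The dexamethasone minus untreated difference in slope was -1.99 ± 0.74 (SE, adjusted p = 0.353) for Cish and -1.20 ± 0.54 (SE, adjusted p = 0.458) for Jak2. Without granulocyte-marker pairs the Cish difference was -0.97 and that of Jak2 -3.13, each with adjusted p = 0.9997. The difference was -1.004 ± 0.66 for Socs2, -0.37 ± 0.25 for Pim1, -0.36 ± 0.45 for Stat5a and 0.12 ± 0.47 for Stat5b (SE).

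Daughters of 1 founder were then compared. Epor agreed in detection between daughters in 18 of 23 pairs, 78.3%, against 53.3% for cells of different founders of the same treatment. Its absolute difference on the log2(CPM + 1) scale was 2.30 ± 2.84 (SD, n = 23 pairs) within pairs and averaged 3.77 between founders. In 13 pairs both daughters had Epor, in 5 neither and in 5 one. Those with neither were untreated pairs 9 and 10 and dexamethasone pairs 6, 7 and 8. All of these but dexamethasone pair 8 were granulocyte-marker pairs. Agreement in detection was not computed without granulocyte-marker pairs, for Epor or for the other genes. The split pairs were wide apart. Untreated pair 13 had 0.22 and 524 CPM, dexamethasone pair 11 had 0 and 345 CPM, dexamethasone pair 13 had 234 and 0 CPM, dexamethasone pair 10 had 0.61 and 55.8 CPM, and dexamethasone pair 12 had 0 and 49.0 CPM. In untreated pair 13 both daughters kept Gata1 (870 and 359 CPM) and Klf1 (1429 and 1643 CPM), as in dexamethasone pair 13 (Gata1 657 and 487 CPM, Klf1 614 and 647 CPM). Gata1 agreed in detection in 22 of 23 pairs and Klf1 likewise.

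Agreement was lower for the kinase, the Stat5 genes, Cish and Pim1. Daughters agreed in detection in 16 of 23 pairs for Jak2 (69.6%, against 53.7% between founders), 15 for Cish (65.2% against 57.7%), 14 for Stat5a (60.9% against 49.2%), 14 for Pim1 (60.9% against 54.5%) and 13 for Stat5b (56.5% against 48.4%). Cish agreed in 8 of 10 untreated pairs (80.0%, against 47.8% between founders). With dexamethasone it agreed in 7 of 13 pairs (53.8%), less often than between founders (63.5%). Stat5b had the widest gap between daughters at 3.36 ± 3.19 (SD, n = 23 pairs, log2 scale), close to its 3.597 between founders. Pim1 had a gap of 1.05 ± 0.72 (SD) against 1.61 between founders.

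The edgeR test of differences between founders beyond those between daughters called 0 of the 7 genes that passed its filter, and 3.38% of all 8015 genes (271). Epor had an adjusted p of 0.224, Pim1 of 0.273, Cish of 0.286, Jak2 of 0.316, Socs2 of 0.339, Stat5a of 0.441 and Stat5b of 0.464. With limma 651 genes were called and none of the 7. Without granulocyte-marker pairs 39 genes were called, and 93 with founders compared only within a plate column. Dexamethasone was not found to change the gap between daughters. limma called 0% of 8015 genes (325 at an unadjusted p under 0.05), and among the 7 genes the dexamethasone minus untreated gap ran from -0.55 ± 1.21 for Stat5b to 1.13 ± 1.09 for Stat5a (SE, adjusted p = 0.9925 for both).

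**Figure D5:**
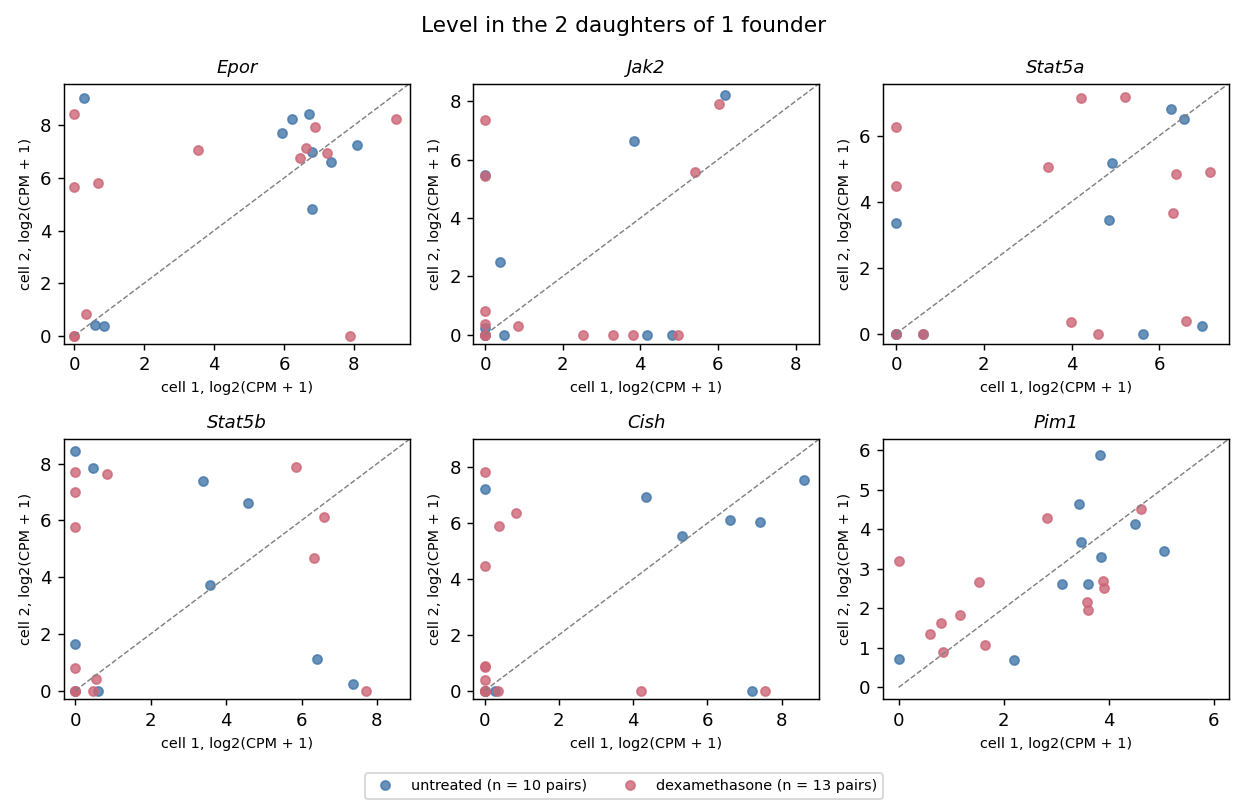
Level in cell 2 against cell 1 of each founder as log2(CPM + 1) for 6 genes, untreated (blue, 10 pairs) and dexamethasone (red, 13 pairs), with the line of equal levels. Epor pairs mostly lie near the line or at the origin with 5 split pairs, while Stat5b and dexamethasone Cish pairs lie along the axes.

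With the founder held fixed, the daughter with more Epor was also compared for the other genes. Where a daughter had each gene at 10 CPM or more, the daughter with more Epor had more Cish in 8 of 12 pairs, more Jak2 in 6 of 10, more Stat5b in 7 of 12, more Stat5a in 6 of 16 and more Pim1 in 4 of 12. In edgeR with 1 term per pair the slope on Epor was 0.54 ± 0.34 (SE) for Jak2, 0.01 ± 0.27 for Cish, -0.02 ± 0.14 for Pim1, -0.10 ± 0.62 for Stat5a, -0.27 ± 0.42 for Stat5b and -0.30 ± 0.33 for Socs2. None was called, as 0% of 8014 genes were (401 at an unadjusted p under 0.05 with edgeR, 584 with limma, which also called 0). Without granulocyte-marker pairs edgeR called 1 gene, the glycolytic gene Pfkl (adjusted p = 0.0331, named after its value was seen).

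Beyond the 10, a list of 73 genes of cytokine receptors and kinases, other STATs, adaptors, brakes and further STAT5 targets was read in the same fits. With dexamethasone 44 were tested and 0 were called, 30 with a positive and 14 with a negative fold change, at a median of 0.20 against 0.02 for all genes. The lowest p values were those of Myc, a growth regulator, at 1.02 ± 0.62 log2 (SE), and Mcl1, a survival gene, at 1.07 ± 0.78, with adjusted p = 0.9999 for both. Tfrc, the transferrin receptor gene, which the sort used as a surface marker, had -0.89 ± 0.65 (SE, adjusted p = 0.9999). On Epor 0 of 44 were called. Podxl, a sialomucin gene, had a slope of 1.16 ± 0.32 (SE, adjusted p = 0.0907) and Ptpn6, the phosphatase that dephosphorylates the receptor complex, -0.43 ± 0.13 (adjusted p = 0.150). In the interaction with treatment 0 of 44 were called, and the lowest p values were those of Socs4 at -2.004 ± 0.51 (adjusted p = 0.215) and Inpp5d at -1.58 ± 0.43 (adjusted p = 0.231). In the interaction of treatment with plate columns 0 of 44 were called as well. In the edgeR test of founders against daughters, Myc differed between founders beyond its daughters' spread (adjusted p = 0.00375). Within founders 0 of 52 followed Epor, with Socs6 at 0.60 ± 0.24 and Socs4 at 0.91 ± 0.39 lowest in p (SE, adjusted p = 0.958 for both). For the gap between daughters 0 of 52 were called, and Spred2 at -1.72 ± 0.73 and Shc1 at 2.09 ± 1.06 had the lowest p values (SE, adjusted p = 0.9925 for both).

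The genes most like Epor over the 23 pair means, among 8014 genes by Pearson's r of log2(CPM + 1), were Blvrb, a biliverdin reductase gene, at 0.908, Add2, which encodes an adducin of the red cell membrane skeleton, at 0.883, Stard4 at 0.875, Gstm5 at 0.874, Cited4 at 0.866 and the quinone reductase gene Nqo1 at 0.862. In the 16 pairs without granulocyte markers these values were 0.848, 0.787, 0.847, 0.748, 0.663 and 0.670. The most opposite were Klk8 at -0.850, Adgrg3 at -0.840 and Alox5ap, a leukotriene synthesis gene, at -0.821. Pim1, the nearest of the other members, ranked 969 of 8014 and Cish 1162.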

How the data were processed

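The members and lists were chosen with earlier results of these data known. The authors deposited raw read counts per gene in 1 table per treatment, made with STAR 2.4 and featureCounts on GRCm38, per the submitters' processing notes. The sources used here state neither strand and multimapping settings nor molecular identifiers, and intervals and limits cover counting error only. Limits for 0 counts use 3 counts.

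Counts of the 2 daughters were summed per pair. Fits used edgeR 4.0.16 (TMM, filterByExpr), limma 3.58.1 and DESeq2 1.42.0 in R 4.3.3, with calls at an adjusted p under 0.05. Fits of single libraries used genes with 5 counts in 10 libraries. The gap between daughters was tested with limma. Fits were tested on simulated negative binomial counts. Genes missing from many cells yet high in others were not simulated, so how well the fits find changes in such genes was not tested. Coordinates came from GENCODE M21. Named beyond the 10 genes were the called genes of the pathway list, or the 2 with the lowest p, and the genes most and least like Epor. A further called gene of the list is not reported here. Tfrc was named in addition, after its value was seen. Alternatives were normalization, tool, filter, pseudocount, shallow pairs, granulocyte-marker pairs, plate columns and each pair left out. 0 libraries were identical and 0 columns were unused.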

Additional observations from a re-analysis of the deposited data

Results flagged for a closer look

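In the untreated group, the 10 pair means of log2(CPM + 1) of each of the 10 genes were checked for a pair that stood apart. The 13 dexamethasone pairs are too many for this check. For normally distributed values chance flags about 1 in 20 groups. That rate does not apply to a gene at 0 in nearly all pairs, which is flagged when 1 pair holds nearly all its counts. In 3 genes the highest pair stood apart. Osm was 2.15 in pair 6 and 0 in the other 9. Socs3 was 2.92 in pair 3 and 0 in the other 9. Socs1 was 2.09 in pair 13, with the next pair at 0.26. Each rests on 1 daughter cell, and each gene had no count in most libraries.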

How the results depend on the processing

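Under the other settings 464 values of the genes in the main fits were read. Of these fold changes, slopes, gaps and founder tests, 44 turned in sign, and none was called. The founder tests carry no sign. Socs1, Socs3 and Osm were not in the main fits and were not read under other settings. The Jak2 fold change with dexamethasone was 0.17 with DESeq2, 0.019 with 10 counts in 5 pairs, 1.05 without granulocyte-marker pairs, 0.37 with plate columns as a covariate and 0.45 with the pair number as replicate block. That of Stat5b was 0.060 with all 26 pairs, 0.10 without granulocyte-marker pairs and 0.75 with the replicate block. Leaving out 1 pair at a time gave -0.60 to 0.10 for Epor, -0.89 to 0.90 for Jak2 and -0.30 to 0.32 for Stat5b. Calls with dexamethasone were 1 without granulocyte-marker pairs and 0 under the other settings, the replicate block included (130 at an unadjusted p under 0.05). Pair numbers shared by the treatments do not pair samples: the 10 correlations of deviations ran from -0.132 to 0.172.

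Genes called on Epor numbered 969 with limma, 0 with Gata1 as covariate, 1 without granulocyte-marker pairs, 1260 with no filter, and 22 to 99 when 1 pair at a time was left out. The slope turned with limma for Stat5b (0.12) and Cish (0.39), with Gata1 as covariate for Stat5a (-0.067), and without granulocyte-marker pairs for Stat5a (-0.051) and Socs2 (-0.19). Leaving out 1 pair moved the Cish slope between -0.095 and 0.73. Without granulocyte-marker pairs the interaction of Pim1 was 0.12. Genes called between founders numbered 651 with limma, 39 without granulocyte-marker pairs and 93 within plate columns, and genes called within founders 1 without granulocyte-marker pairs. Within founders the limma slope was -0.069 for Cish and 0.022 for Pim1. The dexamethasone minus untreated gap between daughters was 0.059 for Stat5b and -0.41 for Pim1 with the shallow pairs included, and -0.023 for Jak2, -0.12 for Socs2 and -0.11 for Pim1 with log2(CPM + 10). The cause of these changes was not tested.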

Other observations

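The 3 untreated pairs left out for depth held these values. In pair 12, cell 1, with 4204860 counts, had 309 CPM of Epor, 11.7 CPM of Pim1 and 0.24 CPM of Cish. In pair 7, cell 2, with 225519 counts, had 195 CPM of Epor, 137 CPM of Cish, 57.6 CPM of Pim1 and 22.2 CPM of Jak2. The sisters of these 2 cells held 11791 and 5733 counts. In pair 4 the libraries held 13575 and 0 counts. At 5733 counts a single read is worth more than the highest Pim1 level of the 46 libraries used.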
